A study of Mus musculus with 2 samples.

Results

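The 8 genes described here, Mrc1, Cd163, Folr2, Lyve1, Stab1, Msr1, Marco and Timd4, encode uptake receptors used as marks of tissue macrophages. They were chosen by symbol from the 27998 genes of the count matrices, and all 8 were found. Their level was followed in cells rich in complement C1q RNA, in all other cells, and in the cell classes of 2 droplet libraries. Both libraries came from wild-type C57BL/6 mice, from parietal bone in which a defect of 2 mm had been made, with the defect area trimmed out 14 days after surgery and digested in 0.3% collagenase. In 1 library the defects had received CGG hydrogel, and in the other CGG-Cit hydrogel. The labels spell out neither abbreviation and do not say how many mice were pooled, and the design had no defect without a hydrogel. As each hydrogel has 1 library, differences between them are given as sizes without a test. The 95% intervals below express counting error and nothing else, of molecules for levels and ratios and of cells for shares of cells. Cells of 1 library share their source and are not replicates.

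Scavenger receptors bind altered proteins, lipids, dying cells and clotting or matrix debris and carry them into the cell for breakdown. Macrophages that live in a tissue for long periods carry many of them at once, whereas monocytes freshly arrived from blood carry few, and an injured bone can hold both kinds. Mrc1 is the mannose receptor CD206, which clears glycoproteins and collagen fragments. Folr2 is folate receptor beta, Stab1 (stabilin 1) internalises modified lipoproteins and the matrix protein SPARC, and Cd163 takes up haptoglobin-hemoglobin complexes. Lyve1 binds hyaluronan and also marks lymphatic endothelium, Msr1 and Marco are class A scavenger receptors with collagen-like stalks, and Timd4 (TIM-4) binds the phosphatidylserine exposed on dying cells.

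Per GENCODE vM21 on GRCm38 (mm10), Mrc1 (ENSMUSG00000026712) lies on the plus strand at chr2:14229392-14332057, and the microRNA gene Mir511 lies inside it on the same strand. Cd163 (ENSMUSG00000008845) lies on the plus strand at chr6:124304656-124330527. Folr2 (ENSMUSG00000032725) lies on the minus strand at chr7:101839988-101857194, where Gm10602, an antisense gene, and Gm45319, a processed pseudogene, lie on the opposite strand. Lyve1 (ENSMUSG00000030787) lies on the minus strand at chr7:110850607-110863239. Stab1 (ENSMUSG00000042286) lies on the minus strand at chr14:31139013-31168641 and overlaps Nt5dc2 on the opposite strand. Msr1 (ENSMUSG00000025044) lies on the minus strand at chr8:39581685-39642673, Marco (ENSMUSG00000026390) on the minus strand at chr1:120474538-120505024, and Timd4 (ENSMUSG00000055546) on the plus strand at chr11:46810800-46844332.

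Promoter sequence from RefSeq (GRCm38.p6) was matched by symbol for 6 of the 8 genes, with 7 start sites because Folr2 has 2, and none was matched for Lyve1 or Msr1. The 250 bases before the start are shown for Mrc1, Folr2 and Cd163, because these receptors were detected together in the same cells. They cover chr2:14229164-14229413 (plus strand), chr7:101857191-101857440 (minus strand) and chr6:124304401-124304650 (plus strand), each printed 5′ to 3′ in the gene's direction. Capitals mark the letters GAGGAAG, the core of a PU.1-type site, TGCTGAC or CACCC, on either strand, so that GAGGAAG on the other strand reads CTTCCTC and CACCC reads GGGTG.
Mrc1: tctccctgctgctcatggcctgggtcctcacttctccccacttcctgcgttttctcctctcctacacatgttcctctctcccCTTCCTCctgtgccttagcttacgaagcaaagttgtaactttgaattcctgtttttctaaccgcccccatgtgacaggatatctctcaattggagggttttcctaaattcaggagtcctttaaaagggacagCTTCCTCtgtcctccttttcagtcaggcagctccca
Folr2: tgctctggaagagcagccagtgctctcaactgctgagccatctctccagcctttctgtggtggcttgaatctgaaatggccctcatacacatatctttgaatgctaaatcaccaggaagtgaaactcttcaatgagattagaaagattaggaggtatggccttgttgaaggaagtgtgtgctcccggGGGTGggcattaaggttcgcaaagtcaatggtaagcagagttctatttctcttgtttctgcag
Cd163: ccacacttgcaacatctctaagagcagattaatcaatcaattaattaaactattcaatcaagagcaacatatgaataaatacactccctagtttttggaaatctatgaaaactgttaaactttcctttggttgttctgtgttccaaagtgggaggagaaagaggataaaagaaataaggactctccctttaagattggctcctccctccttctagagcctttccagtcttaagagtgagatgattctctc
Mrc1 held GAGGAAG at 2 places, Folr2 held CACCC before its first listed start, and Cd163 held none of these letters. Counted over the 300 bases from 250 before to 50 after each start, GAGGAAG stood in 2 of the 7 promoters (Mrc1 and Marco), against 13.6% of the 32851 promoters in the RefSeq table. TGCTGAC stood in 1 of 7 (Timd4), against 4.67% of all. CACCC stood in 5 of 7, against 57.5% of all. None of the 7 held the longer GAGGAAGT, which overlaps GAGGAAG (3.20% of all), or the Stat-type palindromes with 2 or 4 free bases in the middle (0.889% and 0.825% of all). A match is a run of letters and not a shown binding site.

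After filtering, 11073 CGG cells (median 3969 UMIs, unique molecular identifiers that each count 1 captured RNA molecule) and 9994 CGG-Cit cells (median 5913.5) were kept. A cell was called C1q-positive when it held at least 5 UMIs of C1qa, C1qb and C1qc together and at least 1 of each. By this rule 2047 CGG cells (18.5%, interval 17.8 to 19.2) and 30 CGG-Cit cells (0.300%, interval 0.203 to 0.428) were C1q-positive. The label of macrophage was checked against other genes and held in part. In a clustering made without the 8 receptors, 1032 of the CGG cells and 24 of the CGG-Cit cells lay in the cluster led by C1qa, C1qb and C1qc, with medians of 113 and 111 C1q UMIs, and Csf1r was detected in 93.0% of these CGG cells. The other 1015 CGG cells lay in other clusters, 704 of them unnamed and 185 endothelial, with a median of 9 C1q UMIs, and Csf1r was detected in 40.0% of them. A C1qa UMI was present in 37.0% of the CGG cells outside the gate but in 0.572% of those of CGG-Cit. The C1q-positive cells of CGG outside the C1q-led cluster summed to 32979 CPM (UMIs per 1000000 UMIs of the cells summed) of 9 mesenchymal markers, against 1084 CPM inside it. They are therefore called C1q-positive cells here, and each main result is given for all of them and for those in the C1q-led cluster, a restriction chosen after seeing the data. The libraries shared 34 cell barcodes, and 11 of the 2047 C1q-positive CGG cells but none of the 30 of CGG-Cit carried one of them.

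Mrc1 was the most abundant of the 8 in the C1q-positive CGG cells. Its level was 352.6 CPM (interval 344 to 362), from 5925 UMIs in 1056 cells (51.6%). Folr2 and Stab1 followed at 138.0 (132 to 144) and 136.2 CPM (131 to 142), with overlapping intervals, and Msr1 stood at 109.3 CPM (104 to 114). Although Folr2 and Stab1 had nearly the same level, Folr2 was detected in 515 cells (25.2%) and Stab1 in 836 (40.8%). These libraries read the 3′ end and count each molecule once, so the levels compare molecules between genes without a length correction.

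Cd163 and Lyve1 were rare. Cd163 reached 14.9 CPM (13.1 to 16.8) from 250 UMIs in 64 cells (3.13%), and Lyve1 11.2 CPM (9.65 to 12.9) from 188 UMIs in 37 cells (1.81%). Timd4 had 16 UMIs in 10 cells, or 0.952 CPM, and Marco 3 UMIs in 1 cell. In these defects 4 of the 8 receptors thus made up nearly all the receptor UMIs counted in C1q-positive cells.

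The 30 C1q-positive CGG-Cit cells gave a different order. Msr1 stood at 104.2 CPM (75.1 to 141), from 42 UMIs in 16 cells. Mrc1 stood at 89.3 CPM (62.6 to 124), from 36 UMIs in 12 cells, and Stab1 at 86.9 CPM (60.5 to 121), from 35 UMIs in 11 cells. These 3 intervals overlapped, so their order is not resolved at this depth. Of the Stab1 UMIs, 12 came from a single cell. Folr2 had 13 UMIs in 4 cells, or 32.3 CPM (17.2 to 55.2). Cd163, Lyve1, Timd4 and Marco had no UMI, which at 402988 UMIs in these cells allows up to 7.44 CPM for each.

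**Figure D1:**
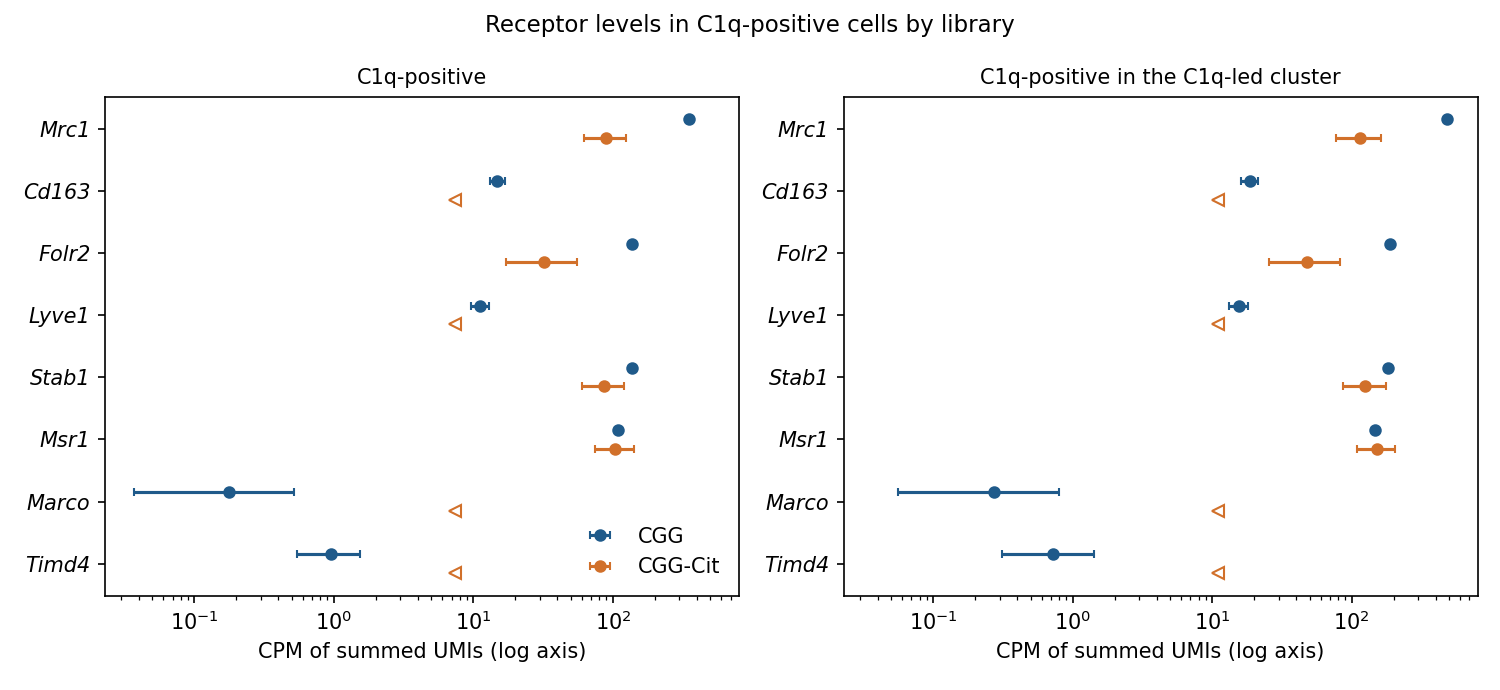
Level of each receptor in CPM (horizontal log axis) in the CGG and CGG-Cit libraries, with exact Poisson 95% intervals as bars. The left panel shows all C1q-positive cells and the right panel those in the C1q-led cluster. Open triangles mark genes with 0 UMIs, drawn at the floor of 3 UMIs. Mrc1 and Folr2 have lower CPM in CGG-Cit, with intervals apart, whereas Msr1 has nearly the same CPM in both libraries.

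Among the 4 receptors with a UMI in the C1q-positive cells of both libraries, the mannose and folate receptors differed most. Mrc1 was 3.95-fold lower in the CGG-Cit cells (2.85 to 5.64) and Folr2 was 4.28-fold lower (2.50 to 8.05). Msr1 stood at nearly the same level in both, with a ratio of 0.953 (0.685 to 1.29). Stab1 was 1.57-fold lower (1.12 to 2.26). For Cd163 and Lyve1, absent from the CGG-Cit cells, the floor of 3 UMIs gives at least 2.00-fold and at least 1.5-fold lower, the first just short of the 2-fold call. The exact 95% interval of the ratio starts at 1.61-fold lower for Cd163 and 1.21-fold for Lyve1. By the call of 2-fold or more, 2 of the 6 receptors compared were lower and 0 were higher. Over all genes compared, 13.5% were lower by the same call. Timd4 and Marco were too rare to compare.

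Within the C1q-led cluster, Mrc1 and Folr2 were again the receptors called lower. Mrc1 stood at 483.5 CPM (471 to 497) in CGG and 114.6 CPM (77.8 to 163) in CGG-Cit, 4.22-fold lower (2.97 to 6.22). Folr2 stood at 189.5 and 48.0 CPM, 3.94-fold lower (2.30 to 7.42). Stab1 stood at 183.7 and 125.7 CPM, 1.46-fold lower (1.04 to 2.12), and Msr1 at 147.0 and 151.5 CPM, a ratio of 1.03 (0.737 to 1.40). There 2 of 6 receptors were called lower, beside 9.69% of all genes, and 0 higher, beside 7.43%. Outside that cluster, the C1q-positive CGG cells held 103 CPM of Mrc1, 40.1 of Folr2, 45.8 of Stab1 and 37.7 of Msr1.

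Shares of cells were compared after thinning each cell to 2000 UMIs, which left out 294 CGG cells and 1 CGG-Cit cell. Mrc1 was then detected in 35.0% of 1753 CGG cells (32.8 to 37.3) and 17.2% of 29 CGG-Cit cells (5.85 to 35.8), and Folr2 in 15.1% (13.4 to 16.8) and 3.45% (0.0873 to 17.8). The intervals of the libraries overlapped for both, so the lower share in CGG-Cit is not resolved with 29 cells. Stab1 was detected in 23.3% and 20.7%, and Msr1 in 16.7% and 20.7%. The C1q-positive cells were deeper in CGG-Cit, with a median of 10414.5 UMIs per cell against 5313. Only 30 cells stand behind the CGG-Cit values, and with doublets kept (35 CGG-Cit cells) the receptors called lower were 5 in place of 2, Stab1, Cd163 and Lyve1 being added. Without C1q-positive cells that held 3 UMIs of another class's marker (649 and 9 cells left), Mrc1 had a log2 ratio of -1.19 in place of -1.98, Stab1 turned to 0.25 and Msr1 to 0.72.

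Within the CGG library, 6 of 6 receptors compared were at least 2-fold higher in C1q-positive cells than in the other 9026 cells. Among all genes 8.69% were higher by that call. Folr2 had the widest margin at 30.7-fold, against 4.49 CPM in the other cells. Mrc1 was 20.7-fold higher (19.4 to 22.1), against 17.0 CPM in other cells, and Cd163 18.4-fold. Stab1 was 12.1-fold higher, Msr1 11.4-fold and Lyve1 8.32-fold. With the comparison drawn between the C1q-led cluster and all other classes the count was again 6 of 6, beside 12.2% of all genes, and the folds ran from 11.3 for Lyve1 to 49.2 for Folr2. Without the 35 cells of the Cd209f-led subcluster described below the count was 4, as Cd163 and Lyve1 then fell under the minimum of 10 CPM and were not compared. The count was also 4 with a C1q gate of at least 2 UMIs and 2 genes. It was 4 again without C1q-positive cells holding 3 UMIs of another class's gene. Of the 6, only Mrc1 and Stab1 reached that minimum in the other cells as well, so for the remaining 4 the call was fixed by the minimum and the count supports nothing about them.

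In the CGG-Cit library 3 receptors reached 10 CPM and 20 UMIs, each through the C1q-positive cells alone, and all 3 were higher there, beside 18.3% of all genes. Mrc1 was 86.1-fold higher, Stab1 55.2-fold and Msr1 17.5-fold. In the C1q-led cluster the same 3 were higher, beside 23.6% of all genes. Since the minimum let them in only through the cells where they were high, nothing is read from these counts. Lyve1 (93 UMIs) and Cd163 (59) had every UMI outside the C1q-positive cells, and at under 10 CPM they were not compared. The other cells held only 0.975 and 0.619 CPM of them. The ratio intervals reach up to 9.58 and 15.3, so the 0 UMIs in 30 C1q-positive cells show no direction. Folr2 fell under the minimum of 20 UMIs, with 13 of its 15 UMIs in C1q-positive cells. B lineage cells, which should lack these receptors, gave a background level whose source was not tested. In CGG 5 of them passed the C1q gate. In CGG the 919 B lineage cells (median 2837 UMIs) held 7.65 CPM of Mrc1, detected in 2.94% of them, 4.06 CPM of Folr2, 5.97 of Stab1, 3.58 of Msr1 and no UMI of the other 4. In CGG-Cit the 3883 B lineage cells (median 3227 UMIs) held 0.274 CPM of Mrc1 and of Stab1, and no UMI of Folr2. The libraries thus differed in this background too, and its part in the lower folds of CGG was not tested.

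Where the UMIs of a receptor sat also differed by library. In CGG, C1q-positive cells held 84.2% of all Mrc1 UMIs, 88.7% of Folr2, 82.5% of Cd163, 75.7% of Stab1, 74.5% of Msr1 and 68.1% of Lyve1. For Timd4 the share was 32.7%, or 16 of 49 UMIs. In CGG-Cit, C1q-positive cells held 86.7% of the Folr2 UMIs but only 26.7% of Mrc1, 18.9% of Stab1 and 6.90% of Msr1. None of the 93 Lyve1 UMIs and none of the 59 Cd163 UMIs of CGG-Cit lay in a C1q-positive cell. These shares depend on the number of C1q-positive cells, 2047 and 30, as well as on the level in each.

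The C1q-positive cells were clustered again without the 8 receptors, which left 5 subclusters mostly inside the C1q-led cluster. Since clusters of these same cells are compared, the values are a description and not a test. Their leading genes were H2-Eb1 (410 CGG cells, 13 CGG-Cit), Mmp12 (237 and 4), Apoe (192 and 7), Il10 (182 and 2) and Cd209f (35 and 0). Mrc1 in CGG ran from 188 CPM in the Mmp12-led cells through 370 in the H2-Eb1-led, 520 in the Apoe-led and 1092 in the Il10-led to 1725 in the Cd209f-led cells. Folr2 ran from 41.6 CPM in the Mmp12-led through 139 in the Apoe-led, 141 in the H2-Eb1-led and 287 in the Il10-led to 1913 in the Cd209f-led cells. The 2 subclusters led by Apoe and H2-Eb1 did not differ in Folr2 beyond counting error.

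Stab1 took the same order at its ends, with 61.4 CPM in the Mmp12-led, 120 in the H2-Eb1-led, 357 in the Apoe-led, 398 in the Il10-led and 442 in the Cd209f-led cells. Msr1 was far more even, at 122 CPM in the Apoe-led, 127 in the Il10-led, 137 in the H2-Eb1-led, 158 in the Mmp12-led and 225 in the Cd209f-led cells. It was the only receptor of these 4 whose Mmp12-led level was not its lowest. Mmp12-led cells, which also carried Gpnmb, Spp1 and Fabp5 among their leading genes, thus kept Msr1 while holding the least Mrc1, Folr2 and Stab1.

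**Figure D2:**
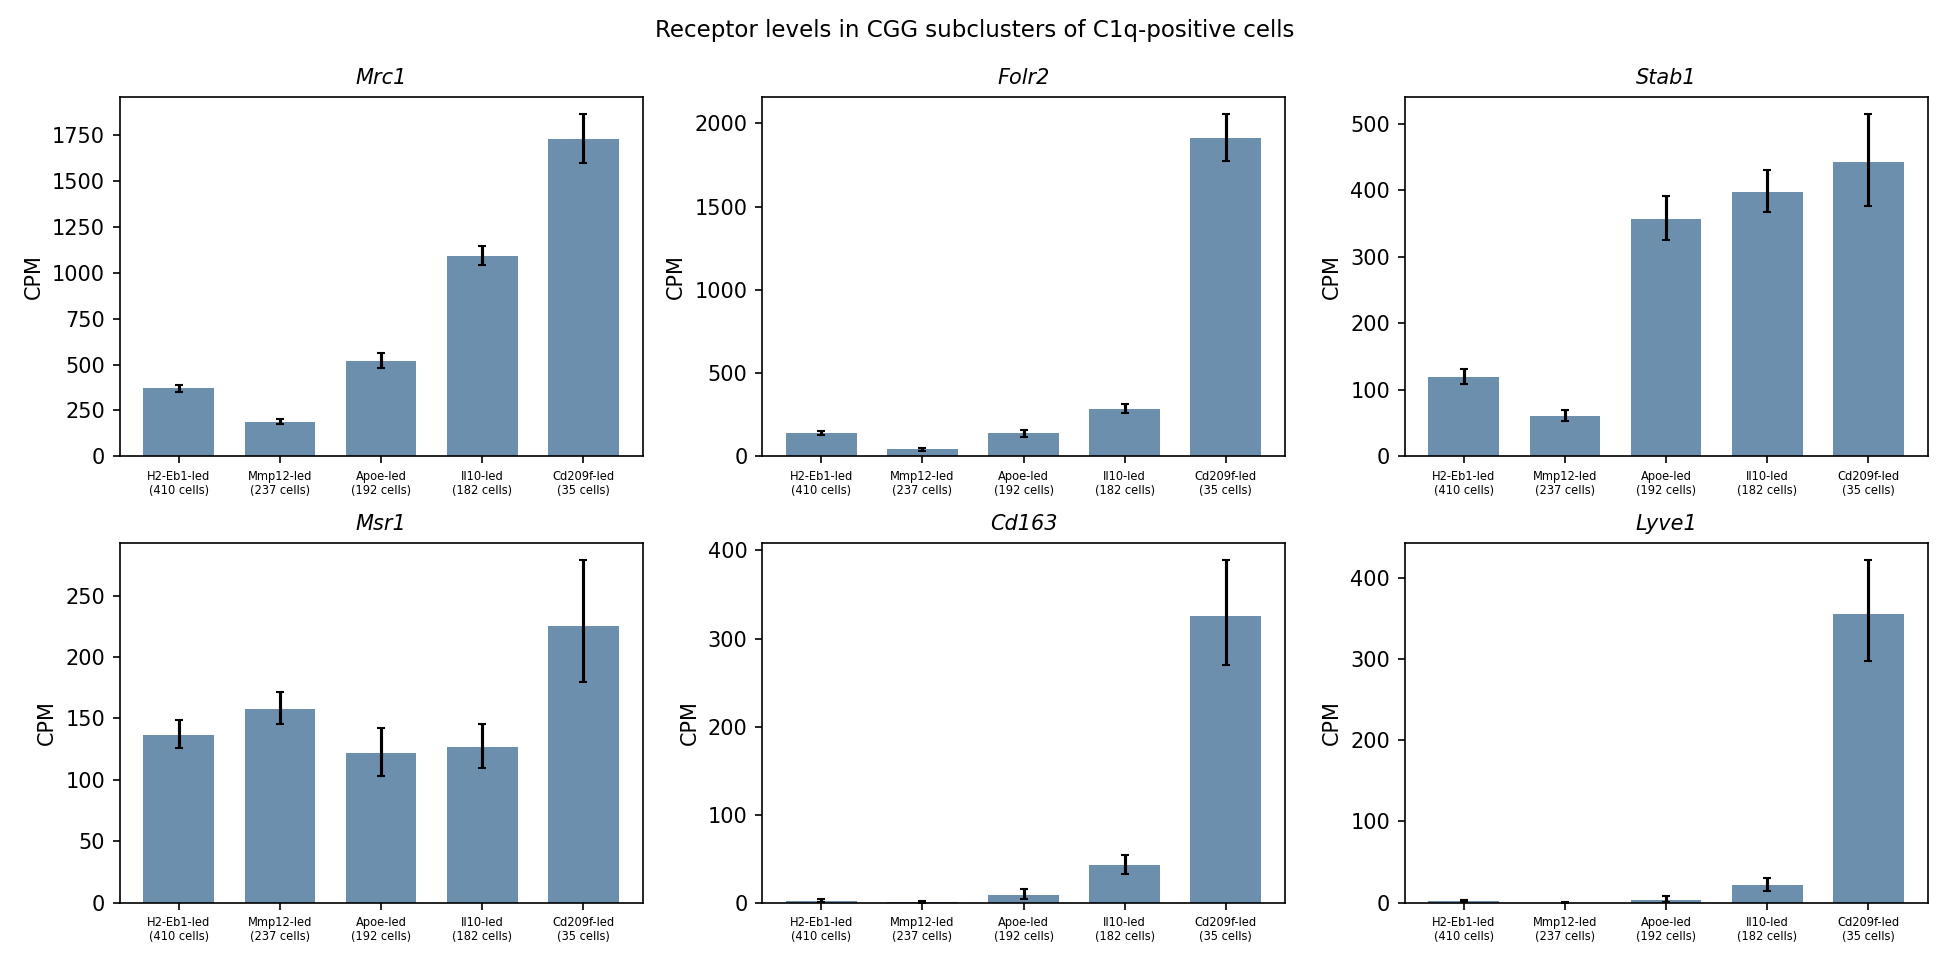
Level of the receptors in CPM, as bars on a linear axis from 0, in the 5 subclusters of C1q-positive CGG cells, named by a leading gene. Thin lines are exact Poisson 95% intervals, and a level of 0 UMIs has no bar height. Lyve1 and Cd163 climb most steeply towards the Cd209f-led cells, whereas Msr1 stays between 122 and 225 CPM.

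Cd163 and Lyve1 were concentrated in the 35 Cd209f-led cells. Cd163 stood at 326 CPM there, against 42.4 in the Il10-led, 9.06 in the Apoe-led, 1.92 in the H2-Eb1-led and 0.272 in the Mmp12-led cells. Lyve1 stood at 355 CPM there, against 21.2, 3.78, 1.68 and 0 in the same order. Set against the other C1q-positive cells of the C1q-led cluster, Lyve1 was 94.6-fold higher (65.9 to 138), Cd163 40.3-fold (30.3 to 53.8) and Folr2 14.7-fold (13.4 to 16.1). Mrc1 was 3.92-fold higher, Stab1 2.53-fold and Msr1 1.56-fold (1.24 to 1.95). By the 2-fold call 5 of 6 receptors were higher, and 12.7% of all genes were, while 0 of 6 were lower, beside 7.98% of all genes. Cd163 and Lyve1 reached 10 CPM in the Cd209f-led cells alone, so for them the minimum fixed the call.

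These 35 cells made up 1.71% of the C1q-positive CGG cells but held 69.7% of their Lyve1 UMIs, 48.0% of Cd163 and 30.4% of Folr2. Their shares of Mrc1, Stab1 and Msr1 were 10.7%, 7.12% and 4.52%. Cell by cell, Mrc1 ranged from 1 to 44 UMIs (median 16) and Folr2 from 1 to 60 (median 17), and both were present in 35 of 35 cells. Stab1 was present in 31 (median 5) and Msr1 in 26. Cd163 was present in only 17 of the 35, with up to 25 UMIs in a cell, and Lyve1 in 18, with up to 42. Mrc1 and Folr2 were thus detected in every cell of the subcluster, at widely varied counts, and Cd163 and Lyve1 in only part of its cells. These counts were not thinned, so detection also depends on the depth of each cell. Over all 2047 C1q-positive cells, 50% of the Lyve1 UMIs came from 4 cells and of the Cd163 UMIs from 9, whereas for Mrc1 it took 152 cells. Without the Cd209f-led cells, Lyve1 in the remaining C1q-positive CGG cells stood at 3.47 CPM, Cd163 at 7.91, Folr2 at 98.2 and Mrc1 at 322 CPM. Without C1q-positive CGG cells that held 3 UMIs of another class's gene, Lyve1 stood at 2.79 CPM and Cd163 at 8.37. With all C1q-positive CGG cells they stood at 11.2 and 14.9 CPM, so much of their level sat in cells with such UMIs.

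Other genes of fixed lists moved with the receptors in the Cd209f-led cells. Of 23 genes of resident macrophages, 19 were at least 2-fold higher and 0 lower than in the other cells of the C1q-led cluster. Among them Pf4, a platelet and macrophage chemokine, was 7.39-fold higher, Ccl8 6.50-fold, the selenoprotein carrier Sepp1 3.92-fold and Ccl7 2.68-fold. Several genes of that list, such as Ednrb, Cbr2 and F13a1, also lead the subcluster, so this count is not independent of it. Of 7 MHC class II genes 5 were lower, with Cd74 at 0.228 and H2-Aa at 0.203 of the other cells' level. Of 14 lipid-associated macrophage genes 7 were lower, among them the galectin Lgals3 at 0.318. Among 24 other uptake receptors 10 were higher and 5 lower, from the lectin Clec10a at 20.3-fold higher to Cxcl16 at 0.284. The median log2 ratio over all genes was 0.18. No CGG-Cit cell fell in this subcluster, and 0 of 30 allows a share of up to 11.6% (exact Clopper-Pearson).

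The makeup of the C1q-positive cells also differed between the libraries, so the H2-Eb1-led subcluster, which held 13 of the 30 CGG-Cit cells, was compared on its own. Over its 410 CGG and 13 CGG-Cit cells the log2 ratio of CGG-Cit to CGG was -2.05 for Mrc1 (-2.93 to -1.30), -1.66 for Folr2 (-2.98 to -0.60), -1.43 for Stab1 (-2.75 to -0.37) and -0.10 for Msr1 (-0.82 to 0.54). Over all C1q-positive cells the log2 ratio of Mrc1 was -1.98, and Msr1 again stood near 0 in this subcluster. These values rest on 13 CGG-Cit cells, and the part of makeup in the differences between the libraries was not tested.

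Receptors were then followed within single cells, in 1753 C1q-positive CGG cells thinned to 2000 UMIs. Of 28 pairs, 10 had both receptors in at least 20 cells each, and in 10 of these 10 a receptor was detected more often in cells with the other than in cells without it, with intervals that did not meet in 8. In the C1q-led cluster (981 cells) the counts were 10, 10 and 5. Because cells differ in how much macrophage RNA they hold, the values in the C1q-led cluster are given first.

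Among cells with a Mrc1 UMI there, 31.3% also held Folr2 (142 of 453, interval 27.1 to 35.8), against 12.1% of cells without Mrc1 (64 of 528, 9.46 to 15.2). Stab1 was present in 45.5% of Mrc1-positive cells (206 of 453) and 21.2% of the rest (112 of 528). With Folr2 it was present in 47.1% (97 of 206), and without in 28.5% (221 of 775). These 3 receptors therefore tended to occupy the same cells.

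Msr1 was linked to the others less clearly. In the C1q-led cluster it was detected in 25.6% of Mrc1-positive cells (21.6 to 29.9) and 19.5% of the rest (16.2 to 23.1), in 29.1% with Folr2 and 20.5% without, and in 23.9% with Stab1 and 21.6% without, and all 3 pairs of intervals overlapped. Over all 1753 cells the contrasts were wider, such as 23.0% with Mrc1 and 13.3% without, a set that mixes cells of the C1q-led cluster with cells outside it. For Folr2 over all cells the shares were 27.7% with Mrc1 and 8.25% without.

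**Figure D3:**
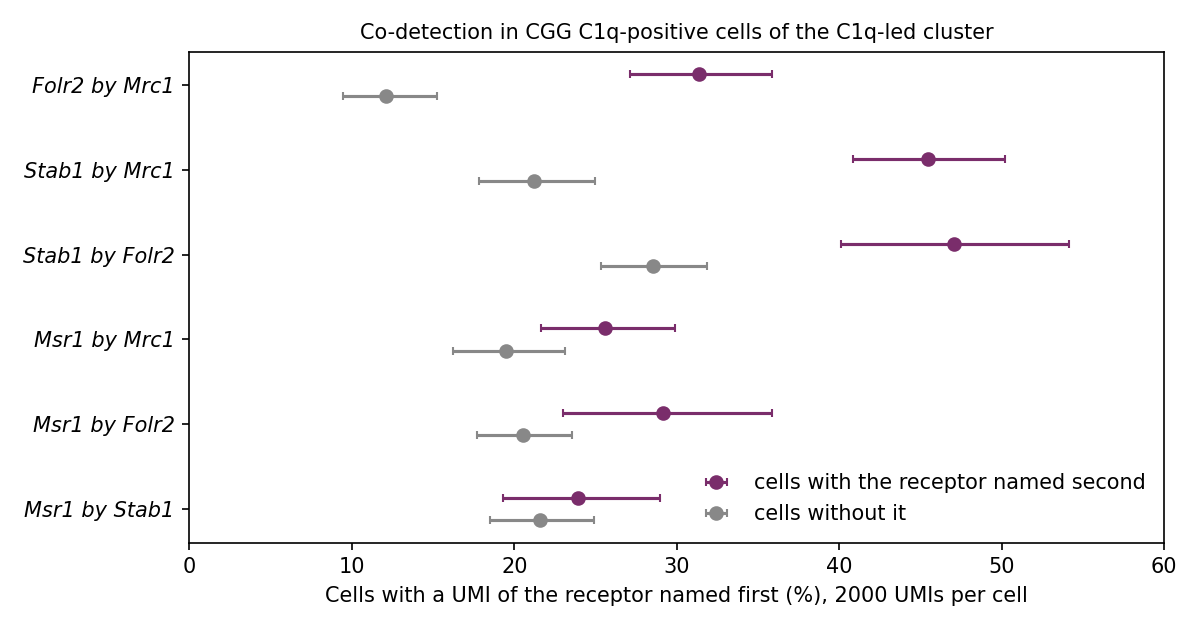
Percent of C1q-positive CGG cells of the C1q-led cluster, each thinned to 2000 UMIs, with a UMI of one receptor among cells with and without a UMI of another, with exact 95% intervals as bars. Folr2 with and without Mrc1 stand at 31.3% and 12.1% with intervals apart, whereas the intervals for Msr1 overlap.

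In the C1q-led cluster, Cd163 was detected mostly in cells that also held the mannose receptor. Of 22 thinned cells of the C1q-led cluster with a Cd163 UMI, 21 also held Mrc1 (95.5%, against 45.0% of the rest) and 18 held Folr2 (81.8% against 19.6%). Over all C1q-positive cells these were 25 (78.1%) and 18 (56.2%) of 32, and outside the cluster 4 and 0 of 10. Before thinning, Mrc1, Folr2, Lyve1 and Cd163 were all present in 8 of the 35 Cd209f-led cells and in 2 of the other 997 cells of the C1q-led cluster. The Cd209f-led cells held a median of 5 of the 8 receptors (2 to 7), and the others a median of 2 (0 to 6). With the Cd209f-led cells left out, 6 pairs in the C1q-led cluster had at least 20 cells each, all 6 were more often together, and 3 had intervals apart.

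Counted per cell, thinned C1q-positive CGG cells held a mean of 0.930 receptors, and 166 of 1753 (9.47%, interval 8.14 to 10.9) held 3 or more. No receptor was detected in 779 of them (44.4%). In the C1q-led cluster the mean was 1.25, and 145 of 981 (14.8%) held 3 or more. Outside it the mean was 0.518, and 21 of 772 (2.72%) held 3 or more. In CGG-Cit the mean was 0.621, and 2 of 29 cells held 3 or more. These shares hold for a depth of 2000 UMIs per cell and rise with depth, to 20.6% with 3 or more receptors at 4000 UMIs.

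Folr2 was then used to divide the C1q-positive CGG cells of the C1q-led cluster, 206 with a UMI and 775 without after thinning. By the rule for named genes, the 10 most raised beside Folr2 were Ednrb (21.9-fold), the endothelin receptor B, Cbr2 (12.6), Cd163 (11.7), F13a1 (9.68), which encodes coagulation factor XIII A, the lectin Clec10a (8.74), Etv1 (7.52), Fxyd2 (7.29), Cp (6.06), which encodes ceruloplasmin, Bmp2 (5.64) and Npl (5.17). The 10 most reduced were Fabp4 (6.65-fold lower), Vegfa (4.56), Cd300lf (4.34), the elastase Mmp12 (4.13), Fabp5 (4.11), Itgax (4.01), Gpnmb (3.75), Mfge8 (3.55), Bcl2a1a (3.54) and Atp6v0d2 (3.31). Fabp5, Mmp12, Gpnmb and Atp6v0d2 belong to the list of lipid-associated macrophage genes. Nearly all thinned Cd209f-led cells lay on the Folr2-positive side: without them 174 cells with Folr2 and 773 without remained. Ednrb, Cbr2, Clec10a and F13a1 are also leading genes of that subcluster. The contrast was not repeated without it, so its part in these folds was not tested.

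Among the other receptors, Lyve1 was 7.05-fold higher in the Folr2-positive cells of that cluster, Mrc1 2.53-fold and Stab1 2.00-fold. Msr1 was 1.27-fold higher (0.952 to 1.68), an interval that holds 1. In all C1q-positive cells (264 with and 1489 without Folr2) Ednrb (15.6-fold) and Cbr2 (14.7-fold) again led. There the genes lowest with Folr2 were stromal in type, Efemp1 (5.67-fold lower), Cd200 (5.05) and Cdh11 (3.98) among them. Of these cells, 58 of the 264 with Folr2 and 714 of the 1489 without lay outside the C1q-led cluster.

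In the levels by cell class that follow, a class or cluster includes the C1q-positive cells that fell in it. Msr1 was carried by monocytes. In the cluster led by Hpgd, Ccr2 and F13a1 (295 CGG and 411 CGG-Cit cells), it stood at 68.6 CPM in CGG (58.1 to 80.4) and 70.0 CPM in CGG-Cit (61.6 to 79.3), a ratio of 1.02 (0.831 to 1.26), and 35.3% and 35.0% of cells held a UMI. In the same monocytes Mrc1 was 29.3 and 8.75 CPM, 3.35-fold lower in CGG-Cit (2.15 to 5.32). Of 2 receptors compared it was the 1 called lower, beside 4.27% of all genes, with 0 higher, beside 2.32%. Mrc1 reached the minimum of 10 CPM through CGG alone, so nothing is read from this count. B lineage cells, used above for the background level, held 7.65 CPM of Mrc1 in CGG and 0.274 CPM in CGG-Cit. The part of this background in the lower Mrc1 of CGG-Cit monocytes was not tested. The Msr1 ratio between the libraries thus had an interval that holds 1 in C1q-positive cells and in monocytes, reaching up to 1.29 and 1.26, though with doublets kept it was lower in the C1q-positive cells of CGG-Cit, by a log2 ratio of -0.64 (-1.11 to -0.20).

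Stab1 was held by endothelium. In the 135 CGG and 45 CGG-Cit cells of the cluster led by Plvap and Cldn5 it stood at 148 CPM (128 to 171) and 87.3 CPM (63.9 to 116), and was detected in 79 cells (58.5%) and 19 cells (42.2%). The CGG value is as high as in all C1q-positive CGG cells, at 136.2 CPM, but lower than in those of the C1q-led cluster, at 183.7 CPM. Mrc1, Folr2 and Msr1 had no UMI in the CGG-Cit endothelial class of 46 cells. In CGG another endothelial cluster of 596 cells held 92.6 CPM of Mrc1, 65.8 of Stab1 and 29.3 of Folr2. That cluster has 1 CGG-Cit cell, and 21.4% of the CGG endothelial class passed the C1q gate.

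Lyve1 had a low but steady presence in neutrophils. It stood at 3.29 CPM in CGG (2.18 to 4.75), with 28 UMIs in 25 of 1114 cells, and at 3.67 CPM in CGG-Cit (2.92 to 4.56), with 81 UMIs in 62 of 2678 cells. In CGG-Cit these were 81 of all 93 Lyve1 UMIs, while the 3883 B lineage cells of the library held none. Within neutrophils it was highest in a pair of clusters, at 4.67 and 5.62 CPM where Retnlg led and at 6.54 and 5.72 CPM where Ly6g led (CGG and CGG-Cit). Where Chil3 led, it stood at 1.37 and 1.33 CPM. In the Plvap and Cldn5 endothelium of CGG Lyve1 reached 15.1 CPM, but from 19 UMIs in 3 cells.

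Cd163 in CGG-Cit sat outside C1q-positive cells. Of its 59 UMIs, 32 lay in 25 of the 437 cells of an unnamed cluster led by F13a1 and Tifab, at 2.75 CPM (1.88 to 3.88). The 152 CGG cells of that cluster held 1.39 CPM (0.451 to 3.24), and the intervals overlap. Msr1 in the same cluster stood at 16.7 CPM in CGG and 17.5 CPM in CGG-Cit.

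Timd4, a mark of long-lived resident macrophages, had most of its UMIs in dendritic cells. Of its 49 CGG UMIs, 25 lay in 11 of the 181 cells of the cluster led by Cd209a and Ccr7, at 14.5 CPM (9.41 to 21.5), and 9 lay in 7 cells of an endothelial cluster that held 135 CGG cells and no CGG-Cit cell. The Cd209f-led cells held 5 UMIs in 2 of 35 cells, at 13.6 CPM (4.40 to 31.7), a level like that of the dendritic cells. In the whole CGG-Cit library Timd4 had no UMI, among 51 cells of the same dendritic cluster too. The Cd209a and Ccr7 dendritic cells also held Mrc1, at 62.2 CPM in CGG and 35.6 CPM in CGG-Cit. Marco had 5 UMIs in CGG and 1 in CGG-Cit among all kept cells. Of the 49 Timd4 UMIs of CGG, 33 thus lay outside C1q-positive cells, and Marco was nearly absent from both libraries.

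**Figure D4:**
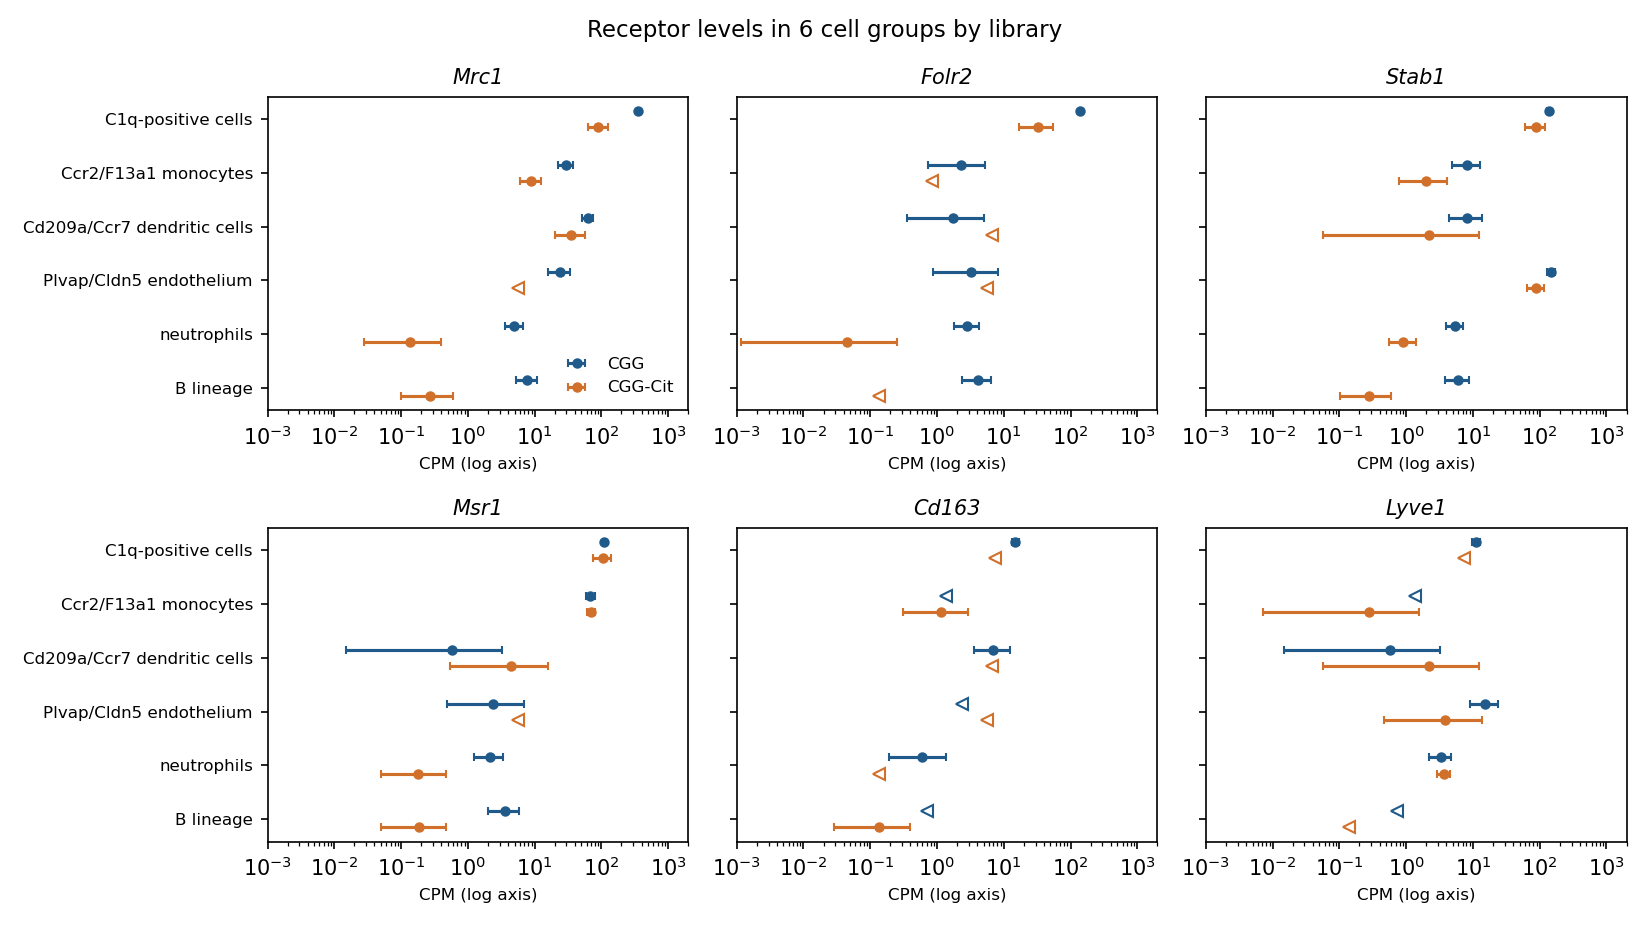
Level of 6 receptors in CPM (log axis) in C1q-positive cells, monocytes, dendritic cells, endothelium, neutrophils and B lineage cells of both libraries, with exact Poisson 95% intervals as bars and open triangles for 0 UMIs drawn at the floor of 3 UMIs. Msr1 in monocytes and Lyve1 in neutrophils stand at about the same level in both libraries.

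Genes with the most similar pattern were ranked by Pearson correlation of log2(CPM + 1) over 19 profiles, each a class in a library with at least 50 cells, among 11862 genes. The profiles share 2 libraries and their depths, so these values only describe. Mrc1 was closest to Dpep2 (0.947), Ms4a7 (0.943) and Pltp (0.936), and Folr2 to Atp6v0d2 (0.974), 4930430E12Rik (0.968) and Cbr2 (0.965). Stab1 was closest to 4930430E12Rik (0.939), Atp6v0d2 (0.933) and Folr2 (0.933). Msr1 was closest to Adgre1 (0.937), which encodes F4/80, Trem2 (0.920) and Siglec1 (0.913). Cd163 was closest to Tnfrsf11a (0.882), Mfsd12 (0.881) and Shtn1 (0.874), Lyve1 to Fcgr4 (0.832), Pla2g7 (0.823) and Dhrs9 (0.818), and Timd4 to Cd209e (0.911), Sept3 (0.834) and Ccl17 (0.827). Atp6v0d2 was close to Folr2 across classes yet 3.31-fold lower in Folr2-positive than in Folr2-negative cells of the C1q-led cluster. Marco, whose highest level in any profile was 0.206 CPM, was closest to Fcna (0.861), Dppa3 (0.781) and Cd5l (0.762).

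Around the receptors, genes of fixed lists were compared between the C1q-positive cells of the libraries, where the median log2 ratio of CGG-Cit to CGG over all genes was 0.01. Of 22 resident macrophage genes 13 were lower by 2-fold or more and 0 higher, with a median of -1.16. Among those with the highest levels, the values were 2.02-fold lower for Sepp1, 3.82-fold for Ccl8 and 15.4-fold for the chemokine Ccl7. In the C1q-led cluster the count was 10 of 22. Other uptake receptors were lower in 8 of 23, with Cd36, a lipid scavenger receptor, 4.67-fold lower and Cd68 at a ratio of 1.06, but in the C1q-led cluster in only 1 of 18. Cd36 was 4.67-fold lower in that cluster too.

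Monocyte genes went the other way. Of 9 compared, 5 were higher and 2 lower, and in the C1q-led cluster 7 of 8 were higher and 1 lower. Ly6c2, a surface protein of inflammatory monocytes, was 4.39-fold higher (6.51-fold in the C1q-led cluster) and Plac8 2.01-fold higher (5.20-fold there), whereas Fn1 was 8.31-fold lower. Chil3, which also leads a neutrophil cluster, was 7.02-fold higher. In cells that were not C1q-positive, these 3 higher genes stood higher in CGG-Cit too. Ly6c2 was at 582 CPM in CGG and 1087 in CGG-Cit, Plac8 at 936 and 1291, and Chil3 at 642 and 1346. In the Ccr2 and F13a1 monocyte cluster, 0 of 9 genes of the list were called higher (2.32% of all genes) and 0 lower (4.27%). The 6 C1q-positive CGG-Cit cells outside the C1q-led cluster summed to 79793 CPM of 12 neutrophil markers, against 6191 CPM in the 24 inside it. Of the 375 Chil3 UMIs in C1q-positive CGG-Cit cells 38 lay in the C1q-led cluster, where Chil3 stood at 140.4 CPM, against 39.1 CPM in CGG. MHC class II genes stood level, with 1 of 7 lower, Cd74 at a ratio of 1.01 and H2-Ab1 at 1.07. Lipid-associated macrophage genes were lower in 6 of 14, with Apoe 2.05-fold lower and Ctsb, Ctsd and Lgals3 at ratios of 0.856, 0.804 and 0.925.

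Of 15 genes that handle the cargo, 1 was higher and 1 lower, the protease Ctsl at 4.99-fold lower. The ferritin chains Fth1 and Ftl1 had ratios of 0.955 and 1.09, and the cholesterol carrier Npc2 0.949. Of 17 regulators 3 were higher and 1 lower. Of 11 ligands and cargo genes 6 were lower and 1 higher, among them Col1a1, at 3891 CPM in the CGG cells and 22.3 in the CGG-Cit cells. Beside the list counts over all C1q-positive cells, 13.5% of all genes were lower in CGG-Cit and 8.09% were higher. Beside those in the C1q-led cluster, 9.69% of all genes were lower and 7.43% higher. The sum of 9 mesenchymal markers differed between the libraries with the ligand list, and its part in the list counts was not tested.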

How the data were processed

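The files deposited by the authors hold raw counts, whole-number UMIs of each gene in each barcode, not normalized. The file headers name Cell Ranger 4.0.0, and the submitters' processing notes name Cell Ranger 3.0 and mm10. Which version of the 10x kit was used is not clear from the labels. The reads were not used here.

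Barcodes with at least 200 genes and at most 20% mitochondrial UMIs were kept, and Scrublet doublets removed (537 of 10531 in CGG-Cit). Its threshold marked 1 CGG cell, under a minimum of 0.5%, so the 1206 highest-scoring of 12279 were removed there (0.8% per 1000 barcodes). Cells were clustered without the 8 receptors (2000 variable genes, 30 components, 15 neighbours, Leiden resolution 1.0, and 1500 genes with resolution 0.5 for subclusters, seed 7), with no batch integration. Clusters were named from marker lists.

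Levels are UMIs summed over cells, as CPM, with exact Poisson 95% intervals. Shares have Clopper-Pearson intervals, and ratios exact conditional binomial intervals. Genes were compared at 10 CPM or more in the higher side and 20 UMIs in all, called at 2-fold, and a count of 0 was set to 3 UMIs as a floor. Each group has 1 library, so there are no tests or p-values. Named genes were all 8 receptors, the 3 with the most alike profile to each, the 10 most changed each way by Folr2 detection (at least 50 CPM in the higher side), and up to 4 of each list by level. The receptors, lists and rules were chosen with earlier results of these data known. The ratio and calling steps were tested on simulated data.

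Tools were Python 3.11.15, numpy 2.4.6, scanpy 1.11.5, scipy 1.17.1, leidenalg 0.10.2, pandas 2.3.3 and igraph 0.11.9. Alternatives covered the C1q gate, doublets, cell filters, scaling, thinning depth and minimum level.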

Additional observations from a re-analysis of the deposited data

How the results depend on the processing

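The number of receptors higher in C1q-positive than in other cells ranged from 4 to 6 in CGG (6 as reported) and from 3 to 4 in CGG-Cit (3 as reported) over the alternatives run. The number lower in CGG-Cit ranged from 2 to 3, except that it was 5 with doublets kept. The share of thinned cells with 3 or more receptors, 9.47% as reported, moved with how cells and detection were set. It was 4.68% with a C1q gate of at least 2 UMIs and 2 genes, 11.7% with at least 10 UMIs and 3.07% or 20.6% with thinning to 1000 or 4000 UMIs. It was 1.43% with detection at 2 UMIs or more and 12.0% without cells holding 3 UMIs of another class's gene. It was 14.8% in the C1q-led cluster, 11.1% with C1q genes at 2000 CPM or more and 8.03% without the Cd209f-led subcluster. The last 3 were chosen after seeing the data. The log2 ratio of CGG-Cit to CGG ranged from -2.08 to -1.19 for Mrc1, from -2.61 to -1.61 for Folr2, from -1.43 to 0.25 for Stab1 and from -0.64 to 0.72 for Msr1. Beyond thinning and the detection level, which set how often a UMI is seen, the cause of these shifts was not tested. The 30 CGG-Cit cells limit every comparison between libraries. No paired analysis was possible because each group has 1 library.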
